A study of Schizosaccharomyces pombe with 6 samples.

Results

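The large-subunit cytosolic ribosomal protein mRNAs of fission yeast (*Schizosaccharomyces pombe*) were examined in RNA pulled down with the long non-coding RNA *aal1*. They were taken as the nuclear genes whose symbol is *rpl* followed by a digit, *rpp0*, or one of the *rpp1* and *rpp2* genes (*rpp101* to *rpp103*, *rpp201* to *rpp203*), without the mitochondrial *mrpl* genes. The symbol alone chose them, and no measured value was used. This gave 83 of the 7001 genes in the deposited table. Chromatin isolation by RNA purification (ChIRP-seq) uses biotinylated probes against one RNA to recover it with the molecules bound to it, and the recovered RNA was sequenced.

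Pull-downs were made from non-dividing cells of 3 strains on Day 6 of stationary phase, with 2 libraries per strain. In *aal1-pOE* cells, a plasmid carried *aal1* behind P41nmt1, a promoter that thiamine shuts off, in a *leu1-32* background. Wild-type cells were the 972 h- strain. In *aal1∆* cells, *aal1* had been removed from 972 h- by CRISPR-Cas9, so these pull-downs measure RNA recovered without the target. The paper states that another long non-coding RNA gene lies antisense to *aal1* and overlaps most of it. The loss of either RNA therefore cannot be told apart in *aal1∆*. All strains were grown in EMMG minimal medium. No library of cells with an empty plasmid was analysed here, so the plasmid, the *leu1-32* background and the extra *aal1* cannot be told apart in *aal1-pOE*. A pull-down value combines how much of an mRNA the cells held with how much of it was recovered, and libraries of unselected RNA from these cells were not analysed here.

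The libraries held 40653 to 175263 counts, of which 644 to 1763 lay on the large-subunit genes. *aal1* itself had 9540 and 20832 counts in *aal1-pOE* cells, 28 and 147 in wild-type cells, and 0 and 0 in *aal1∆*. The second *aal1∆* library was the shallowest of the 6 and the first the deepest. Ribosomal RNA took 18.7 to 19.1% of the counts in *aal1-pOE* cells, 19.4 and 44.8% in wild-type cells, and 31.2 and 39.0% in *aal1∆*.

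The large (60S) subunit forms peptide bonds and holds the tunnel through which the new protein leaves. In eukaryotes its protein shell includes the stalk, which recruits translation factors, the particle of 5S rRNA with uL18 and uL5, and the proteins around the tunnel exit, where chaperones and targeting factors dock. In yeasts, many ribosomal proteins are encoded by several near-identical genes, called paralogs, and ribosomal protein mRNAs are among the most abundant mRNAs of growing cells and decline when growth stops. The 83 genes encode 46 proteins or protein families. Of these, 13 had a single gene, 29 had a pair of copies and 4 had 3 copies. They lie on all 3 chromosomes (32, 31 and 20 genes on I, II and III), and their transcripts span 233 to 2640 nt.

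Fission yeast ribosomal protein promoters commonly carry the HomolD box, CAGTCACA, which takes the place of a TATA box, and the HomolE box. These were searched on both strands of 250 bases before to 50 after each annotated start. HomolD was present in 54 of the 83 promoters (65.1%), against 137 of 5112 promoters of all nuclear protein-coding genes (2.68%), which include the 83. HomolE was present in 20 of 83 (24.1%), against 64 of 5112 (1.25%). Both boxes were found in 13 promoters and neither in 22. The 57 HomolD matches had a median position of -51 relative to the start, with quartiles at -57 and -46. The same box between *rpl35* and *rpl902* was counted for both, at -63 and -148. The 4 windows of 24 bases printed here belong to the most recovered *rpl* mRNA per length and to copies described further on, with the box (or its reverse complement) in capitals, each read 5′ to 3′ on the strand of its gene in RefSeq's ASM294v3.
rpl8, chrII:2045424-2045447, plus strand: ttgctaaaCAGTCACAcagtatcc
rpl1801, chrII:3361744-3361767, plus strand: caaaaaggCAGTCACAaatttact
rpl1802, chrI:1285562-1285585, plus strand: aaacaaaaCAGTCACAcgacaata
rpl1902, chrIII:400689-400712, plus strand: caacacatTGTGACTGctttgatt
No HomolD letters were found in the windows of *rpp0* or *rpl1901*, and *rpl1901* had a HomolE match at -64. A match is a description of the letters and not a measured site. Members with a HomolD box had a median of 62.5 counts over the 6 libraries and those without one 39.

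The copies of a set can be told apart in these counts only where their sequences differ. The *rpl19* pair is shown because the study named *rpl1901*. Its leading copy was not the same in all strains, which was not particular to this pair. In the *rpl11* pair, *rpl1101* took 63.6 and 65% of the counts in wild-type cells. It took 40 and 36.8% in *aal1-pOE* cells, and 37.5 and 40% in *aal1∆*. *rpl1901* (SPBC56F2.02, chromosome II, 4123056 to 4123747, minus strand) and *rpl1902* (SPCC1682.14, chromosome III, 400753 to 401447, plus strand) encode eL19, a protein that lies near the tunnel exit and bridges to the small subunit. Their coding sequences are both 582 nt long and differ at 59 positions, while the proteins are 97.9% identical. The 60-nt coding stretch with the most differences (coding positions 76 to 135, 11 differences, in capitals) reads as follows in ASM294v3, each on the strand of its gene.
rpl1901, chrII:4123586-4123645, minus strand: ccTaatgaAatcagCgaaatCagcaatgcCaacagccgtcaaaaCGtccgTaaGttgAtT
rpl1902, chrIII:400842-400901, plus strand: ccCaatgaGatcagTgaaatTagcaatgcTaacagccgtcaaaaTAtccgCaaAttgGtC
The 2 transcripts shared no stretch of 67 nt, the length of a 75-nt read after the 8 nt the authors trimmed. Of the 83 transcripts, 67 shared no such stretch with another member and 16 did. *rpl1201* and *rpl1202*, which encode the protein at the base of the stalk, shared the most, with 85.2% and 69.7% of their 67-nt stretches. *rpl301* and *rpl302* shared 66.3% and 55.6%, and *rpl1001* and *rpl1002* 30.5% and 35.0%, so counts within these 3 pairs are uncertain.

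As a class, the large-subunit mRNAs made up a small share of the recovered mRNA, which overlapped between strains. They took 2.48 and 2.68% of the counts on nuclear protein-coding genes in *aal1-pOE* cells, 2.18 and 2.82% in wild-type cells, and 1.88 and 2.83% in *aal1∆*. The means were 2.58 ± 0.138%, 2.5 ± 0.453% and 2.35 ± 0.676% (SD, n = 2 each). The 3 strains overlapped, and the libraries of *aal1∆* lay farthest apart. Large-subunit counts were 1.47 and 1.21 times the small-subunit counts in *aal1-pOE* cells, 1.48 and 1.40 times in wild-type cells, and 1.44 and 1.82 times in *aal1∆*. The small-subunit share of mRNA counts was 1.95 ± 0.381% in *aal1-pOE* cells, 1.74 ± 0.382% in wild type and 1.43 ± 0.179% in *aal1∆* (SD, n = 2 each), and each *aal1-pOE* library was above each *aal1∆* library.

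**Figure D1:**
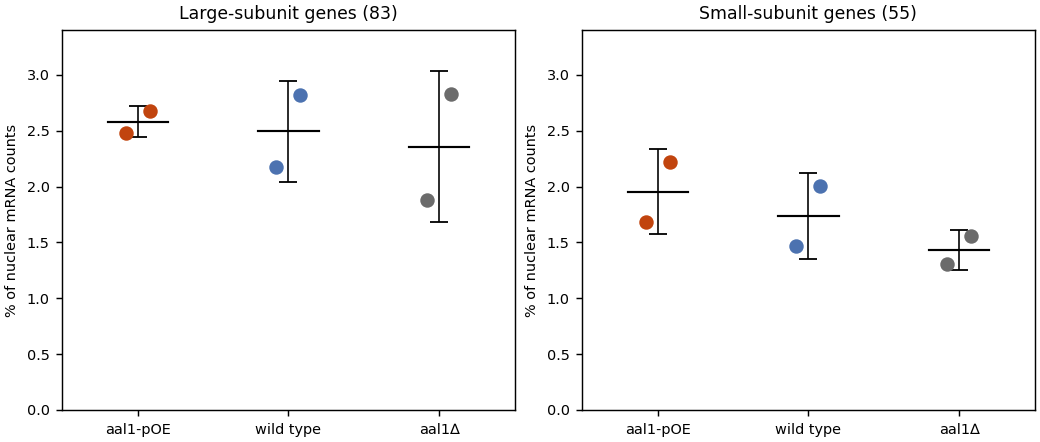
Share of nuclear mRNA counts (y axis, percent) on the 83 large-subunit genes (left) and the 55 small-subunit genes (right) in *aal1-pOE*, wild type and *aal1∆*. Points are libraries, horizontal bars means and whiskers SD (n = 2). The large-subunit shares of the strains overlap, between 1.88 and 2.83%.

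Every member had at least 1 count in some library, and 54 were counted in all 6. Members with a count numbered 78 and 72 in *aal1-pOE* cells, 74 and 73 in wild-type cells, and 78 and 60 in *aal1∆*, the lowest being the shallowest library. The median member had 5 to 13 counts in a library, and 7 members never had more than 5. At this depth a member missing from a library cannot be read as absent from it. Between the 2 libraries of a strain, member counts spread 3.68 (*aal1-pOE*), 3.62 (wild type) and 2.73 (*aal1∆*) times as much as counting error alone gives (chi-square per degree of freedom). The order of the 83 members was similar in all libraries, with Spearman's rho of 0.711 to 0.75 within strains and 0.638 to 0.729 between strains, a description across genes that share transcript length and annotation.

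The stalk genes spanned a wide range of levels. Levels are given here as CPM (counts scaled to a fixed total of nuclear mRNA counts) per kb of transcript, so that genes can be compared. *rpp0* (SPCC18.14c), which encodes uL10, the stalk's anchor, had the most counts of all members in every library, with 147 and 79 in *aal1-pOE* cells, 101 and 79 in wild-type cells, and 158 and 66 in *aal1∆*. Its level per kb was 2806 and 2002 in *aal1-pOE* cells, 1629 and 2039 in wild-type cells, and 1593 and 2750 in *aal1∆*, so the strains overlapped. It held 9.07% of all 6950 member counts. The small acidic stalk proteins P1 and P2, which bind uL10 and contact translation factors, had far fewer counts. *rpp201* had 3 and 12 counts in *aal1-pOE* cells, 12 and 18 in wild-type cells, and 18 and 10 in *aal1∆*. *rpp102* had 4 and 12 counts in *aal1-pOE* cells, 18 and 4 in wild-type cells, and 16 and 0 in *aal1∆*. Of the other acidic genes, *rpp202* reached 14 counts, *rpp101* 7, *rpp103* 9 and *rpp203* 8 in the library where each was highest. *rpl1201* and *rpl1202* had 2 counts each in the first wild-type library and 0 in the other 5, which, with their shared sequence, leaves their level undetermined here.

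The 5S particle proteins uL18 (*rpl501*, *rpl502*) and uL5 (*rpl1101*, *rpl1102*) had 500 counts together and all 4 genes could be tested. They took 5.03 and 5.89% of large-subunit counts in *aal1-pOE* cells, 8.77 and 6.97% in wild-type cells, and 7.71 and 9.16% in *aal1∆*. Both *aal1-pOE* libraries were below the other 4. *rpl501* had 22 and 12 counts in *aal1-pOE* cells, 52 and 29 in wild-type cells, and 71 and 26 in *aal1∆*.

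Members around the exit tunnel had 1019 counts, 9 of 12 being tested. They took 14.0 and 10.2% of large-subunit counts in *aal1-pOE* cells, 17.2 and 16.9% in wild-type cells, and 14.9 and 13.5% in *aal1∆*. Wild type was above both other strains, and *aal1-pOE* overlapped *aal1∆*. *rpl402*, which encodes uL4, a protein whose loop reaches the tunnel constriction, was the best recovered of them, with 39 and 26 counts in *aal1-pOE* cells, 78 and 51 in wild-type cells, and 73 and 23 in *aal1∆*. *rpl35* (uL29) had 1 and 1 counts in *aal1-pOE* cells, 16 and 10 in wild-type cells, and 16 and 0 in *aal1∆*. The second *aal1∆* library with 0 overlapped *aal1-pOE*, and the counts are few.

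Proteins of the core (uL2, uL3, uL16 and eL15), which lie near the peptidyl transferase centre, had 1013 counts, 7 of 9 being tested. The core took 14.7 and 13.8% of large-subunit counts in *aal1-pOE* cells, 11.6 and 16.2% in wild-type cells, and 16.2 and 14.6% in *aal1∆*, so the strains overlapped. *rpl301* (uL3) had 39 and 36 counts in *aal1-pOE* cells, 20 and 38 in wild-type cells, and 74 and 45 in *aal1∆*. *rpl1001* (uL16), which docks late in 60S maturation, had 26 and 4 counts in *aal1-pOE* cells, 45 and 25 in wild-type cells, and 37 and 10 in *aal1∆*.

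The other 49 members held 3575 counts. After *rpp0*, the highest mean levels per kb were those of *rpl8* (eL8, 1423), *rpl13* (eL13, 1145), *rpl6* (eL6, 1023), *rpl101* (uL1, the mobile L1 stalk that guides the leaving tRNA, 990.5), *rpl1602* (uL13, 954.6), *rpl1802* (eL18, 876.1) and *rpl402* (832.5). The median of the 83 members was 331.8. *rpl8* had 804 and 1899 in *aal1-pOE* cells, 1359 and 1179 in wild-type cells, and 1003 and 2292 in *aal1∆*, a spread within *aal1-pOE* and *aal1∆* larger than that between any strains' means. *rpl6* had the smallest ratio of highest to lowest library among these 8, lying between 805.5 and 1288. The 8 genes with the most counts held 35.9% of member counts. At the other end, *rpl1603*, the third copy of the uL13 set, had 1 count in all, in the first *aal1∆* library. Longer transcripts had more counts (Spearman's rho 0.582 over 83 members) and, less steeply, higher levels per kb (rho 0.331).

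**Figure D2:**
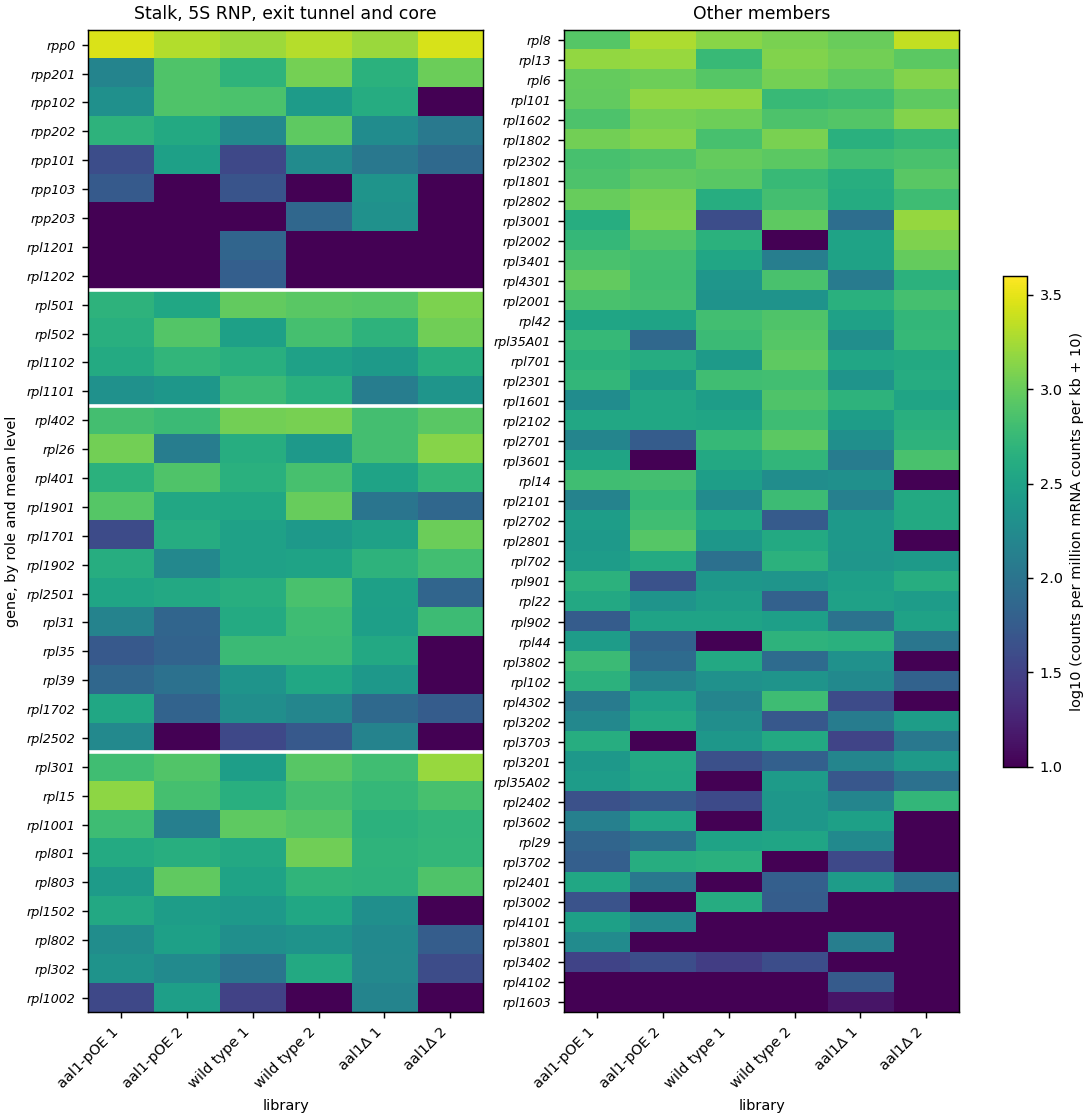
Level of each of the 83 members (rows) in each library (columns), as log10 of CPM of nuclear mRNA per kb plus 10. The left panel holds, from the top and divided by white lines, the stalk, 5S particle, exit tunnel and core genes, and the right panel the other members, each ordered by mean level. *rpp0* is the brightest row in the left panel and *rpl8* heads the right one.

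To ask which mRNAs came down with *aal1*, each *aal1*-carrying strain was set against *aal1∆*, and *aal1-pOE* against wild type, by edgeR's quasi-likelihood test on the counts of all 1329 genes that passed the filter on low counts. Of the members, 50 were tested and 33 were too low. No member passed an adjusted p of 0.05 (Benjamini-Hochberg over the 1329 genes) in any of the 3 comparisons. Over all genes tested, 0.376% passed for *aal1-pOE* against *aal1∆*, 0.15% for wild type against *aal1∆* and 0.226% for *aal1-pOE* against wild type. DESeq2 called 0 members too. The typical member's log2 fold change had a standard error of 0.957, 0.964 and 0.942 in these comparisons (medians), so only large differences could have been detected. In simulated counts of wild type against *aal1∆* (1160 genes), 29 of 91 genes changed by 2 on the log2 scale were found, and 59 of 109 changed by 3. The changed genes were drawn from all genes tested and were far more numerous than those called in the real comparison. These rates are therefore not those for the members.

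At an unadjusted p under 0.05, 2 members were higher (*rpl1901*, *rpl1802*) and 1 lower (*rpl501*) in *aal1-pOE* than in *aal1∆*, where 2.26% and 3.16% of all genes tested were. In wild type against *aal1∆*, 1 was higher (*rpl1901*) and 0 lower, with 1.13% and 1.35% of all genes. In *aal1-pOE* against wild type, 0 were higher and 1 lower (*rpl2701*), with 1.73% and 2.48% of all genes. These counts are of the order that the same threshold gave over all genes.

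The median log2 fold change of the 50 tested members was 0.16 for *aal1-pOE* against *aal1∆*, with 0.01 over all genes, and 29 of 50 members were above 0. It was 0.24 for wild type against *aal1∆*, with 0.001 over all genes, and 31 of 50 were above 0. It was 0.11 for *aal1-pOE* against wild type, with 0.03 over all genes, and 26 of 50 were above 0. Above 0 lay 50.9%, 50.2% and 51.9% of all genes. The 2 comparisons with *aal1∆* share its libraries. Without the second wild-type library the median for wild type against *aal1∆* was -0.07, and without the first it was 0.57, so its sign rested on 1 library. Likewise the median for *aal1-pOE* against wild type was -0.18 without the first wild-type library and -0.1 without the second *aal1-pOE* library. Without the first *aal1∆* library, the members' median for *aal1-pOE* against *aal1∆* was 0.099, below the 0.292 of all genes. For wild type against *aal1∆* it was then 0.205, below the 0.271 of all genes. With scaling by library size only, the medians for *aal1-pOE* were -0.05 against *aal1∆* and -0.11 against wild type, where those of all genes were -0.14 and -0.17.

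The *aal1-pOE* libraries were both higher than either *aal1∆* library in 15 of 50 tested members (30%, with 17.1% of all genes tested), and both lower in 6 (12%, with 17.1%). In wild type, 13 were higher than *aal1∆* (26%, with 14.3% of all genes) and 5 lower (10%, with 16%). Between *aal1-pOE* and wild type, 8 were higher (16%, with 17.8%) and 12 lower (24%, with 16.5%). All 4 *aal1*-carrying libraries were above both *aal1∆* libraries for 5 members, *rpl1502*, *rpl1802*, *rpl1901*, *rpl2302* and *rpl2501*, where this held for 5.27% of all genes tested. They were below both for *rpl1902* alone, with 6.47% of all genes. These orders carry no test of the list.

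**Figure D3:**
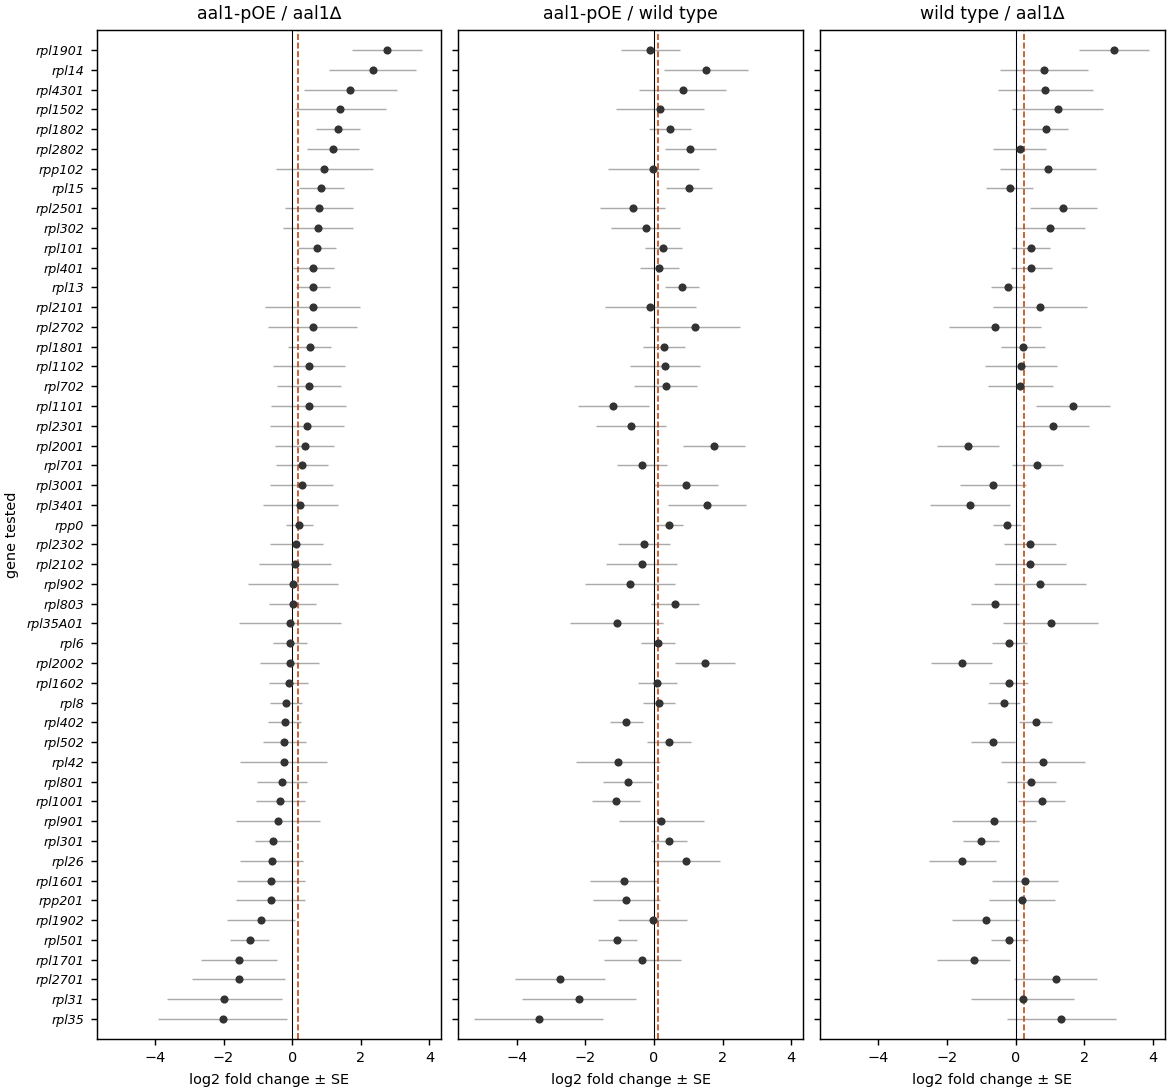
Log2 fold change with its standard error (x axes) of the 50 tested members (rows, ordered by the left panel) for *aal1-pOE* over *aal1∆*, *aal1-pOE* over wild type, and wild type over *aal1∆*. The dashed line is the members' median in each panel (0.16, 0.11 and 0.24). No member passed the adjusted threshold, and *rpl1901* heads both comparisons with *aal1∆*.

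*rpl1901* had 28 and 9 counts in *aal1-pOE* cells, 14 and 25 in wild-type cells, and 6 and 1 in *aal1∆*. Both *aal1*-carrying strains lay above *aal1∆* although the first *aal1∆* library was the deepest. Its log2 fold change was 2.75 ± 1.02 (SE) in *aal1-pOE* (unadjusted p = 0.00855, edgeR's adjusted p = 0.82) and 2.87 ± 1.02 in wild type (unadjusted p = 0.00635, adjusted p = 0.999). The study named this mRNA from these same libraries, so its direction is not independent evidence. With 6 and 1 counts in *aal1∆*, *rpl1901* passed the filter on low counts only through the libraries where it was high. In the *aal1-pOE* and *aal1∆* libraries alone it did not pass, so that comparison rested on wild type being in the fit. *rpl1802* had 36 and 32 counts in *aal1-pOE* cells, 26 and 28 in wild-type cells, and 27 and 8 in *aal1∆*. In CPM of nuclear mRNA it was at 791 ± 92.5 in *aal1-pOE* cells, 603 ± 227 in wild type and 320 ± 45.6 in *aal1∆* (SD, n = 2 each). Its log2 fold change was 1.35 ± 0.642 (SE) in *aal1-pOE* against *aal1∆* and 0.89 ± 0.645 in wild type (edgeR's adjusted p = 0.906 and 0.999). The study also listed *rpl1802* among the mRNAs that appeared enriched in these libraries, so its direction is not independent evidence either.

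*rpl501* stood on the other side. Its log2 fold change was -1.24 ± 0.575 (SE) in *aal1-pOE* against *aal1∆* (unadjusted p = 0.0337, edgeR's adjusted p = 0.906), and -1.06 ± 0.571 against wild type. In wild type against *aal1∆* it was -0.18 ± 0.547. Among the members with the smallest p, *rpl14* (eL14) had 19 and 15 counts in *aal1-pOE* and 11 and 0 in *aal1∆*, a log2 fold change of 2.35 ± 1.27. It was 1.66 without the second *aal1∆* library and 7.06 without the first, where the fit is against a single library with 0 counts and the value is no measure of size. *rpl2802* (uL15) had 28 and 25 counts in *aal1-pOE* against 21 and 8 in *aal1∆* (1.18 ± 0.76), and *rpl101* had 36 and 43 against 45 and 16 (0.73 ± 0.558). On the lower side, *rpl1701* (uL22), *rpl31* (eL31) and *rpl2701* (eL27) were at -1.55 ± 1.10, -1.98 ± 1.67 and -1.57 ± 1.35. In the *aal1-pOE* and *aal1∆* libraries alone, *rpl31* and *rpl2701* did not pass the filter on low counts. *rpl1701* had 1 and 10 counts in *aal1-pOE* against 19 and 16 in *aal1∆*, and was at -4.16 without the second *aal1-pOE* library and -0.54 without the first. *rpl2701* was at -2.47 without the first *aal1-pOE* library and -0.98 without the second *aal1∆* library.

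In wild type against *aal1∆*, the members with the smallest p above 0, after *rpl1901*, were *rpl1101* (1.66 ± 1.07), *rpl2501* (uL23, a docking site of the signal recognition particle, 1.39 ± 0.974), *rpl1802* and *rpl402* (0.59 ± 0.48). Below 0 they were *rpl301* (-1.0 ± 0.524), *rpl2002* (eL20, -1.57 ± 0.891), *rpl26* (uL24, -1.55 ± 0.972), *rpl2001* (eL20, -1.39 ± 0.913) and *rpl3401* (eL34, -1.32 ± 1.16). *rpl2002* had 18 and 0 counts in wild type against 20 and 19 in *aal1∆*, and was at -7.46 without the first wild-type library (the other has 0 counts) and -0.54 without the second *aal1∆* library. *rpl301* was at -1.99 without the second wild-type library and -0.28 without the first, and *rpl3401* at -2.16 without the first wild-type library and -0.51 without the second *aal1∆* library. *rpl2501*, with 20 and 1 counts in *aal1∆*, was at 3.24 without the first *aal1∆* library and 0.81 without the second. So the sizes of these differences rested on single libraries. *rpl301* shares long stretches with *rpl302* and its counts are uncertain.

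*aal1-pOE* differed from wild type most, by unadjusted p, in *rpl2701*. It had 4 and 1 counts in *aal1-pOE* cells, 18 and 18 in wild-type cells, and 10 and 6 in *aal1∆*. Its log2 fold change was -2.73 ± 1.31 (SE) against wild type (unadjusted p = 0.041, edgeR's adjusted p = 0.995), and wild type lay above *aal1∆* while *aal1-pOE* lay below it. With 4 and 1 counts in *aal1-pOE*, *rpl2701* passed the filter on low counts only through libraries where it was higher. Both eL20 genes were higher in *aal1-pOE* than in wild type, *rpl2001* with 1.75 ± 0.903 and *rpl2002* with 1.49 ± 0.88. With both copies summed before the fit, eL20 was at 1.63 ± 0.609 (unadjusted p = 0.00838, edgeR's adjusted p = 0.942). That was the smallest unadjusted p of the 38 summed sets, on 41 and 36 counts in *aal1-pOE* and 26 and 5 in wild type. *rpl2001* had 23 and 16 counts in *aal1-pOE* and 8 and 5 in wild type. *rpl15* (1.02 ± 0.657), *rpl2802* (1.06 ± 0.747) and *rpl13* (0.82 ± 0.494) were also above 0 in *aal1-pOE*. *rpl35* (-3.36 ± 1.88), *rpl1001* (-1.11 ± 0.693) and *rpl402* (-0.81 ± 0.482) were below 0. None of these passed the adjusted threshold. *rpl35* had 1 and 1 counts in *aal1-pOE* and, like *rpl2701*, passed the filter only through libraries where it was higher. With 1 library left out at a time, *rpl2002* ranged from 0.669 (without the second wild-type library, which has 0 counts) to 7.43 (without the first), *rpl1001* from -2.67 (without the first *aal1-pOE* library) to -0.398 (without the second), and *rpl13* from 0.257 (without the first wild-type library) to 1.59 (without the second). *rpl15* ranged from 0.391 (without the first *aal1-pOE* library) to 1.46 (without the second), and *rpl2802* from 0.676 (without the first wild-type library) to 1.49 (without the second).

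The balance within paralog sets was described as the share of the first-numbered copy in the counts of its set. Of the 33 sets with several copies, 18 had at least 10 counts in every library. The same copy led in all 6 libraries in 5 of them, by counts over the rest of its set. Exact 95% binomial intervals (Clopper-Pearson), which cover counting error only, all overlapped across the 6 libraries in 6 sets and did not in 12. Libraries of 1 strain could differ as much as strains did. *rpl901*, of the uL6 pair, took 89.5 and 9.09% of its set in the 2 *aal1-pOE* libraries. *rpl1001* took 96.3 and 33.3% of the uL16 counts in *aal1-pOE* cells, 97.8 and 100% in wild-type cells, and 78.7 and 100% in *aal1∆*. *rpl1701* took 5.88 and 83.3% in *aal1-pOE* cells, 54.5 and 54.5% in wild-type cells, and 76.0 and 94.1% in *aal1∆*.

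Library shares did not overlap in 5 of 18 sets between *aal1-pOE* and *aal1∆*, in 9 between wild type and *aal1∆*, and in 8 between *aal1-pOE* and wild type. Over the 27 ribosomal protein sets of both subunits that met the same minimum, the background was 29.6%, 44.4% and 51.9% for these comparisons, and over the 9 small-subunit sets alone it was 33.3%, 33.3% and 66.7%. Exact two-sided permutation tests of 2 libraries against 2 cannot give a p below 0.333, so no set could pass a threshold. With a minimum of 20 counts per library, 6 sets were left, and the counts were 3, 1 and 3.

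**Figure D4:**
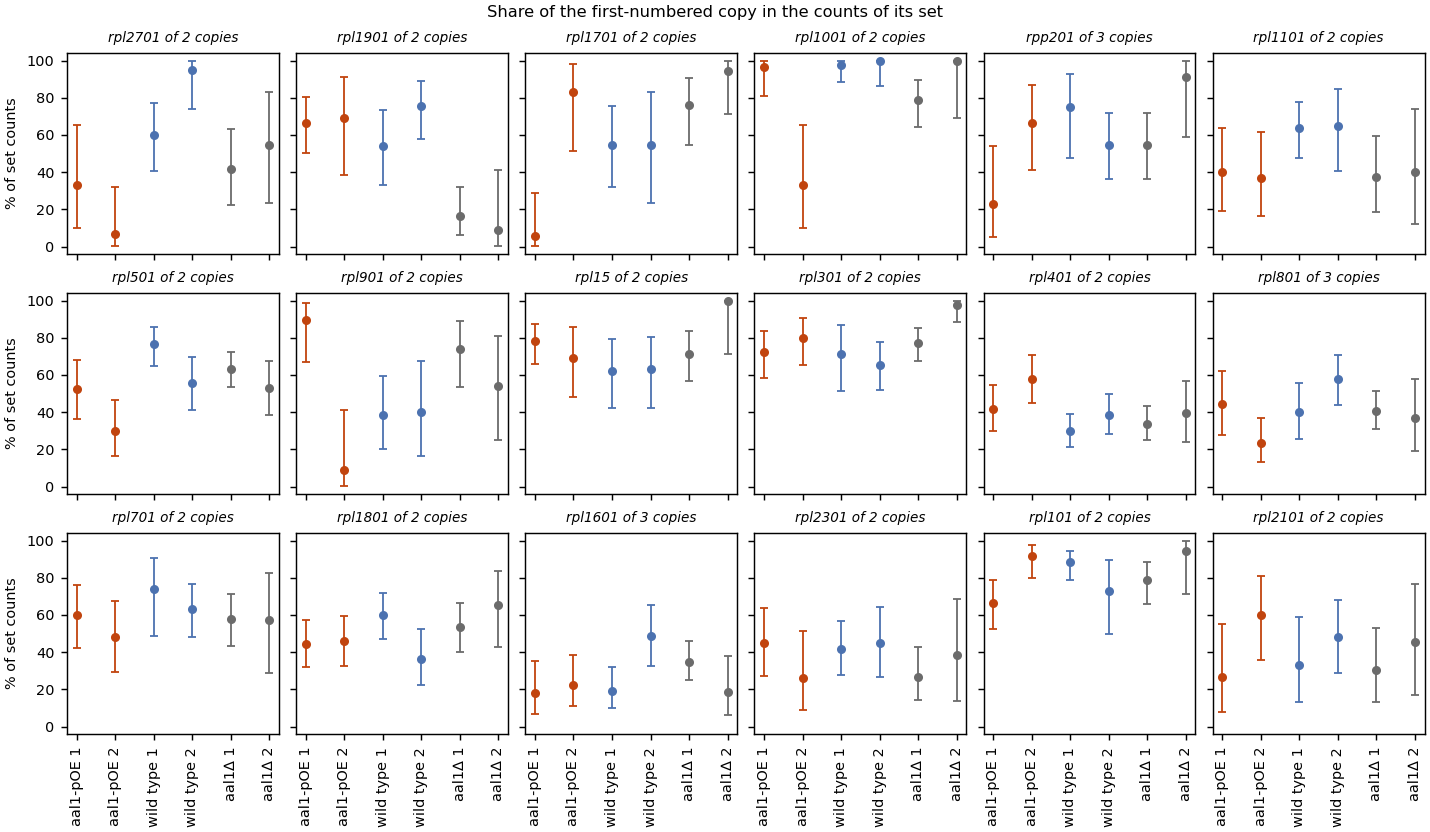
Share of the first-numbered copy in the counts of its set (y axes, percent) in each library, for the 18 sets with at least 10 counts in every library, ordered by the largest difference between strain means. Whiskers are exact 95% binomial intervals, which cover counting error only. In the *rpl19* panel both *aal1∆* libraries lie below the other 4, at 16.2 and 9.09%.

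In the *rpl19* set the shares of *aal1∆* lay apart from those of the other strains. *rpl1901* took 66.7% (95% interval 50.5 to 80.4) and 69.2% (38.6 to 90.9) of the set in *aal1-pOE* cells, 53.9% (33.4 to 73.4) and 75.8% (57.7 to 88.9) in wild-type cells, and 16.2% (6.19 to 32.0) and 9.09% (0.23 to 41.3) in *aal1∆*. So *rpl1901* led in the 4 libraries with *aal1* and *rpl1902* in the 2 without. *rpl1902* had 14 and 4 counts in *aal1-pOE* cells, 12 and 8 in wild-type cells, and 31 and 10 in *aal1∆*. Its log2 fold change against *aal1∆* was -0.91 ± 0.983 (SE) in *aal1-pOE* and -0.87 ± 0.978 in wild type, neither passing the test (edgeR's adjusted p = 1 and 0.999). With both copies summed before the fit, eL19 had 42 and 13 counts in *aal1-pOE* cells, 26 and 33 in wild-type cells, and 37 and 11 in *aal1∆*. The summed log2 fold change was 0.49 ± 0.645 in *aal1-pOE* and 0.58 ± 0.645 in wild type (edgeR's adjusted p = 1 and 0.999). In CPM of nuclear mRNA the summed copies of the 3 strains overlapped. The share is the same contrast that singled out *rpl1901*, and the pair was chosen with that known, so it is given as a description.

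In the *rpl27* set, which had the largest difference between strain means of the 18 sets, the library shares of the 3 strains did not overlap. The interval of the first *aal1-pOE* library covered both *aal1∆* shares. *rpl2701* took 33.3% (9.93 to 65.1) and 6.67% (0.169 to 31.9) in *aal1-pOE* cells, 60% (40.6 to 77.3) and 94.7% (74.0 to 99.9) in wild-type cells, and 41.7% (22.1 to 63.4) and 54.5% (23.4 to 83.2) in *aal1∆*. The set as a whole had 12 and 15 counts in *aal1-pOE* cells, 30 and 19 in wild-type cells, and 24 and 11 in *aal1∆*, and its summed log2 fold change against wild type was -0.62 ± 0.762 in *aal1-pOE*. In the uL18 pair, *rpl501* took 52.4 and 30.0% in *aal1-pOE* cells, 76.5 and 55.8% in wild-type cells, and 63.4 and 53.1% in *aal1∆*, with *aal1-pOE* below both other strains. The eL18 pair was even over all 6 libraries together, where *rpl1801* took 50%. By library *rpl1801* was at 44.6 and 45.8% in *aal1-pOE* cells, 60 and 36.4% in wild-type cells, and 53.5 and 65.2% in *aal1∆*. Both *aal1-pOE* shares were below both *aal1∆* shares, while the intervals of this pair all overlapped. *rpl1801* had 29 and 27 counts in *aal1-pOE* cells, 39 and 16 in wild-type cells, and 31 and 15 in *aal1∆*.

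Among the other sets with the most counts, *rpl401* took 41.8 and 58.1% of the uL4 counts in *aal1-pOE* cells, 29.7 and 38.5% in wild-type cells, and 33.6 and 39.5% in *aal1∆*. Both *aal1-pOE* shares were above those of the other strains. *rpl301* led the uL3 pair everywhere, with 72.2 and 80.0% in *aal1-pOE* cells, 71.4 and 65.5% in wild-type cells, and 77.1 and 97.8% in *aal1∆*. *rpl801*, 1 of 3 genes that encode an identical uL2 protein, took 44.4 and 23.6% in *aal1-pOE* cells, 40.0 and 57.9% in wild-type cells, and 40.9 and 37.0% in *aal1∆*. In the uL13 set *rpl1602* led over *rpl1601* in all 6 libraries, and *rpl1601* took 18.2 and 22.5% in *aal1-pOE* cells, 19.3 and 48.7% in wild-type cells, and 34.9 and 18.5% in *aal1∆*.

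**Figure D5:**
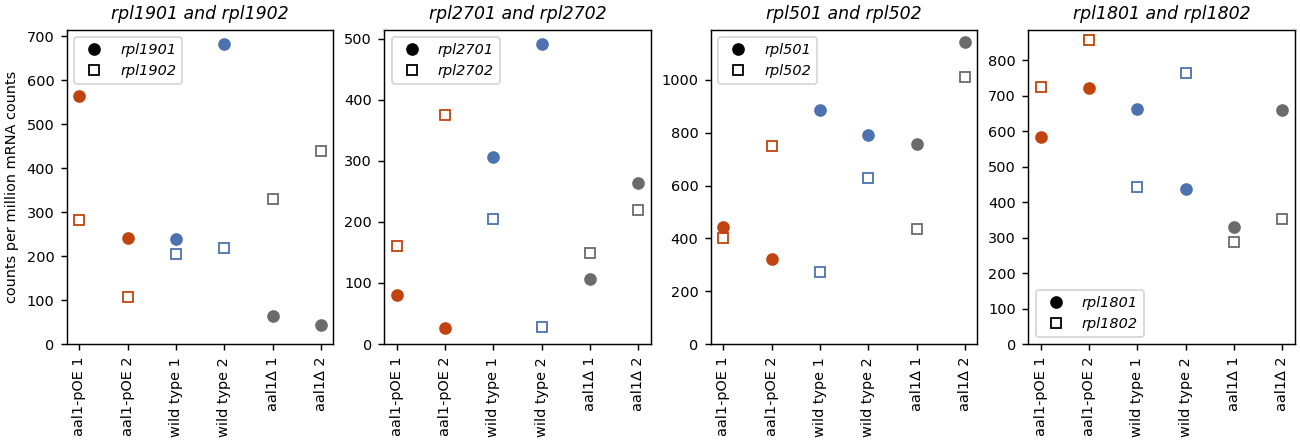
Levels, in CPM of nuclear mRNA counts (y axes), of both copies of the *rpl19*, *rpl27*, *rpl5* and *rpl18* pairs in each library. Filled circles are the first-numbered copy and open squares the second. *rpl1901* lies above *rpl1902* in the *aal1-pOE* and wild-type libraries and below it in both *aal1∆* libraries.

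Perfect Watson-Crick complementarity to *aal1* was searched in each transcript of the annotation. The longest complementary stretch in a member was 8 to 15 nt, with a median of 10, while the median over 5113 nuclear mRNAs was 11 and the longest 18. A stretch of at least 12 nt was present in 5 members (6.02%) and in 1240 of all mRNAs (24.3%), and transcript length was not matched. The longest stretches were in *rpl1801* (15 nt) and *rpp102* (14 nt), while *rpl1901* had 11 nt and *rpl1802* 10 nt. A stretch of letters is not a measured contact.

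Related gene groups were recovered as follows. Of 55 small-subunit genes 39 were tested and 0 called in any comparison, with median log2 fold changes of 0.52 for *aal1-pOE* against *aal1∆*, 0.24 for wild type against *aal1∆* and 0.28 for *aal1-pOE* against wild type. In *aal1-pOE* against *aal1∆*, 33 of these 39 were above 0, where 29 of the 50 large-subunit members were. The 31 mitochondrial large-subunit genes had 8 to 51 counts per library in all, and none of them passed the filter. Of 36 genes for factors that assemble the 60S subunit, 7 were tested and 0 called, with medians of -0.13, 0.06 and -0.08 for the same comparisons.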

How the data were processed

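RNA recovered in *aal1* pull-downs from *aal1-pOE*, wild-type and *aal1∆* cells was measured in 2 libraries per strain, which the study's methods describe as grown and processed independently. The authors mapped read pairs with HISAT2 2.2.1 and counted them per gene with HTSeq 0.12.3 (versions from the submitters' processing notes), and the deposited table holds these raw counts. HISAT2 was run in forward-reverse and HTSeq in reverse strand mode, so the strand counted is uncertain for genes with antisense partners. By default HTSeq drops reads that map to several places, which lowers the counts of near-identical copies. No removal of PCR duplicates is stated. The genome release was not given in the sources used here. Names and coordinates came from RefSeq's ASM294v3, to which 6852 of 7001 identifiers matched, all 83 members among them.

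Counts were fitted with edgeR 4.0.16 in R 4.3.3 (TMM, filterByExpr by strain, glmQLFit and glmQLFTest in the legacy form, all 6 libraries in one fit, strain as the only factor), and p-values were adjusted by Benjamini-Hochberg over 1329 genes. The common dispersion was 0.243, with 3 residual and 70.4 prior degrees of freedom. Standard errors were obtained as the absolute log2 fold change divided by the root of the F statistic. Per-library order of the tested genes was read from TMM-scaled counts. The test was checked on simulated counts, with 2 false calls and 0 in the wrong direction. Paralog shares have exact Clopper-Pearson intervals, for sets with 10 or more counts in every library. Totals of 40653 to 175263 counts per library limit the precision. Same-numbered libraries did not deviate together (r of 0.0886, -0.0522 and 0.047), so the numbers were not taken as pairs.

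Genes were named by a rule: *rpl1901*, *rpl1802* and their copies, the 5 smallest p in each direction of each comparison, the 8 highest levels per kb, the *rpp* genes, and the copies of the 6 paralog sets with the most counts and the 4 with the largest differences. Other genes named were chosen after their values were seen. The members and lists were chosen with earlier results of these data known. Alternatives were other scalings (RLE, upper quartile, library size), filters, DESeq2 1.42.0, a likelihood ratio test, nuclear mRNA only, the compared strains only, summed copies, a replicate block, and each library left out. The edgeR p-values rest on the spread between libraries of 1 strain. For each gene that spread was taken mostly from all genes tested (70.4 prior against 3 residual degrees of freedom).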

Additional observations from a re-analysis of the deposited data

Results flagged for a closer look

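In 3 members among those named, both wild-type libraries and both *aal1-pOE* libraries lay on opposite sides of both *aal1∆* libraries. How often this order occurred over all genes tested was not counted, so the 3 are given as a description only. All 3 had been named for a small p in these same comparisons, so the order is not independent of how they were chosen. Taken singly, which is not the rate of the joint order, wild type lay wholly above *aal1∆* in 14.3% of all genes tested and wholly below in 16%. For *aal1-pOE* it was 17.1% on either side. Whether the effects differ was tested by the comparison of *aal1-pOE* with wild type, and none passed edgeR's adjusted threshold (adjusted p = 0.995 for each). *rpl2001* (eL20) was lower than *aal1∆* in wild type and higher in *aal1-pOE*, with a log2 fold change of 1.75 between *aal1-pOE* and wild type. *rpl2701* (eL27) was higher in wild type and lower in *aal1-pOE*, with -2.73, and passed the filter on low counts only through libraries where it was higher. *rpl402* (uL4) was also higher in wild type and lower in *aal1-pOE*, with -0.812.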

How the results depend on the processing

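The number of members past the adjusted threshold was 0 in every comparison under every alternative run, the replicate block included. With the replicate block, 3, 2 and 0 members had an unadjusted p under 0.05 for *aal1-pOE* against *aal1∆*, wild type against *aal1∆* and *aal1-pOE* against wild type, and the block changed no call. Leaving out 1 library at a time, the members' median log2 fold change ranged from 0.0993 to 0.5, from -0.0659 to 0.574, and from -0.175 to 0.279 in these comparisons. The median of all genes moved too. Without the first *aal1∆* library, the members' median minus that of all genes was -0.193 for *aal1-pOE* against *aal1∆*, where it was 0.154 with all libraries. For wild type against *aal1∆* it was -0.066, where it was 0.24 with all libraries. With scaling by library size only, the median over all genes tested moved to -0.138 for *aal1-pOE* against *aal1∆* and to -0.17 against wild type, and the members' medians to -0.05 and -0.106, which lay 0.088 and 0.064 above those of all genes. Over all counts in place of nuclear mRNA counts, the large-subunit share was 1.28% in *aal1-pOE*, 1.31% in wild type and 1.3% in *aal1∆*, since rRNA and *aal1* then enter the total. Over counts other than rRNA and *aal1* it was 2.04% in *aal1-pOE*, 1.97% in wild type and 1.98% in *aal1∆*. The highest mean was that of *aal1-pOE* here and over nuclear mRNA counts, and that of wild type over all counts. Under each of these totals the libraries of the strains overlapped. Over nuclear mRNA counts but without those of *rpp0* the large-subunit share was 2.33% in *aal1-pOE*, 2.3% in wild type and 2.13% in *aal1∆*. With a minimum of 20 counts, 3, 1 and 3 paralog sets did not overlap, since 6 sets were left. With 1 library left out, these counts ranged from 5 to 15, 9 to 17 and 8 to 15, as a strain with 1 library overlaps less often. Leaving out 1 library turned the sign of *rpl1801* in wild type against *aal1∆* (-0.139 to 0.604), of *rpl301* in *aal1-pOE* against *aal1∆* (-1.02 to 0.0821), and of *rpl1901* (-0.86 to 0.884) and *rpl1902* (-0.901 to 0.483) in *aal1-pOE* against wild type, none of which was called. *rpl1901* against *aal1∆* stayed above 0, between 2.06 and 3.28 in *aal1-pOE* and between 1.9 and 3.51 in wild type. For single members, alternatives were run for the 5 smallest p in each direction of each comparison and for the copies of the *rpl18* and *rpl19* sets. The value of *rpl501* in wild type against *aal1∆* was not among them. Those that left out no library kept the direction of these values and called none. With the compared strains only, 3 members in *aal1-pOE* against *aal1∆* (*rpl1901*, *rpl2701*, *rpl31*) and *rpl3401* in wild type against *aal1∆* did not pass the filter and gave no value. Sizes moved more, by over 1.5 times for several members when 1 library was left out.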
